A study of Mus musculus with 2 samples.

Results

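The 47 genes described here encode the enzymes of glutathione metabolism and of the wider defence against oxidative stress, together with the regulators NRF2 and KEAP1. They were chosen by name, and their values were read from the deposited table wherever its gene column held the symbol. All 47 symbols were found, in 46 of the 29126 entries, because Gstt1 and Gstt3 share a single entry. Every one of the 46 entries had the status OK, the label by which Cuffdiff marks an entry with enough reads. Of the 46 entries, 38 reached an RPKM of at least 1 in at least 1 of the libraries and 8 did not.

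Messenger RNA came from 1 library of Dnmt1+/+ mouse embryonic fibroblasts (MEFs) and 1 library of Dnmt1-/- MEFs, sequenced with the strand of origin preserved. Dnmt1 encodes the maintenance DNA methyltransferase. By the study's methods the cells called Dnmt1-/- carry a hypomorphic Dnmt1 allele on both chromosomes, both lines lack p53, and the strain is unknown. Since each genotype has 1 library, differences could not be checked against replicates and no p-value is given, and genotype cannot be told apart from any other difference between the lines.

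Values are RPKM, reads scaled by transcript length and by mapped reads, so levels of different genes can be set side by side. A change is the difference of log2(RPKM + 0.1), Dnmt1-/- minus Dnmt1+/+, and on this scale the changes of weakly expressed genes come out too small. Pairs of values are given with Dnmt1+/+ first. The read depth behind each value is not part of the table, so no counting interval is given. Over the 11244 entries with a symbol, status OK and at least 1 RPKM in a library, the median change was -0.14. A member is called higher or lower where it changed by more than 2-fold.

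Dnmt1 RNA itself had 65.2 RPKM in Dnmt1+/+ against 14.5 in Dnmt1-/- MEFs, a change of -2.16. Trp53, the gene of p53, was at 18.6 and 19.9 RPKM, which does not test the null allele, since the deleted part is not given in the sources used here. The lines also differed in sex-linked RNA. Xist was at 0.00648 RPKM and 37.0, and all 4 Y-linked genes examined were lower in Dnmt1-/-, with 3 of them listed at 0 there. Of 10 fibroblast markers, 9 reached 1 RPKM, with Col1a1 at 1448 and 898 RPKM and Vim at 2269 and 1873. Col1a2 at 1241 and 476 RPKM, Fn1 at 664 and 235, and Thy1 at 4.84 and 0.129 were lower in Dnmt1-/-, Pdgfra at 6.95 and 18.7 was higher, and Lum was near 0 at 0.0997 and 0.0668. No marker of endothelial, erythroid or liver cells reached 1 RPKM. Among 6 macrophage markers Ptprc, Emr1 and Fcgr1 were listed at 0 in both libraries, and the summed level of the list was 0.681 and 9.75 RPKM, with Cd68 at 0.596 and 3.63 and Csf1r at 0.0702 and 6.08. The 5 epithelial markers found summed to 7.19 and 1.06 RPKM and did not share a direction. Krt19 was at 6.90 and 0.326 RPKM, Krt18 at 0.0358 and 0.441, and Krt8 was listed at 0 and was at 0.216. The part of other cell types in the results that follow was not tested, and fewer cells of a type and less RNA per cell cannot be told apart.

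Glutathione is a tripeptide built by glutamate-cysteine ligase and glutathione synthetase and kept reduced by glutathione reductase. Glutathione S-transferases (GSTs) join it to reactive compounds, and glutathione peroxidases use it to remove peroxides, a task that peroxiredoxins share by drawing on thioredoxin. Many of these genes are induced by NRF2, a transcription factor that KEAP1 marks for destruction until oxidants or electrophiles interrupt it.

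The defence genes differed in direction. Of the 38 entries that reached 1 RPKM, 6 were higher in Dnmt1-/- MEFs (15.8%), against a background of 8.47% of all genes, and 8 were lower (21.1%), against a background of 10.9%. Their median change, -0.13, was close to the -0.14 of all genes. The 6 higher entries were Mgst2, Nqo1, Gstk1, Mgst1, Gstm2 and the joint entry of Gstt1 and Gstt3, so that 5 of the 6 were transferases. Transferases made up 12 of the 38 entries, and of these 12, 2 were lower and 5 within 2-fold. The 8 lower entries were Gpx7, Sod3, Prdx4, Gstm1, Prdx6, Gsta4, Prdx1 and Cat, mostly enzymes that act on peroxides or superoxide directly. Of such entries, 3 of 5 peroxiredoxins, 1 of 4 glutathione peroxidases and 2 of 4 for catalase and dismutases were lower. The rest were within 2-fold. Mgst2 and Gstk1 reached 1 RPKM in Dnmt1-/- only, and Gpx7 and Sod3 in Dnmt1+/+ only, so each of these 4 could be counted in 1 direction alone. Nearest to the 2-fold limit were Gstt1 with Gstt3 just past it at 1.01, Txn1 just short of it at -0.99 and Cat just past it at -1.06.

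**Figure D1:**
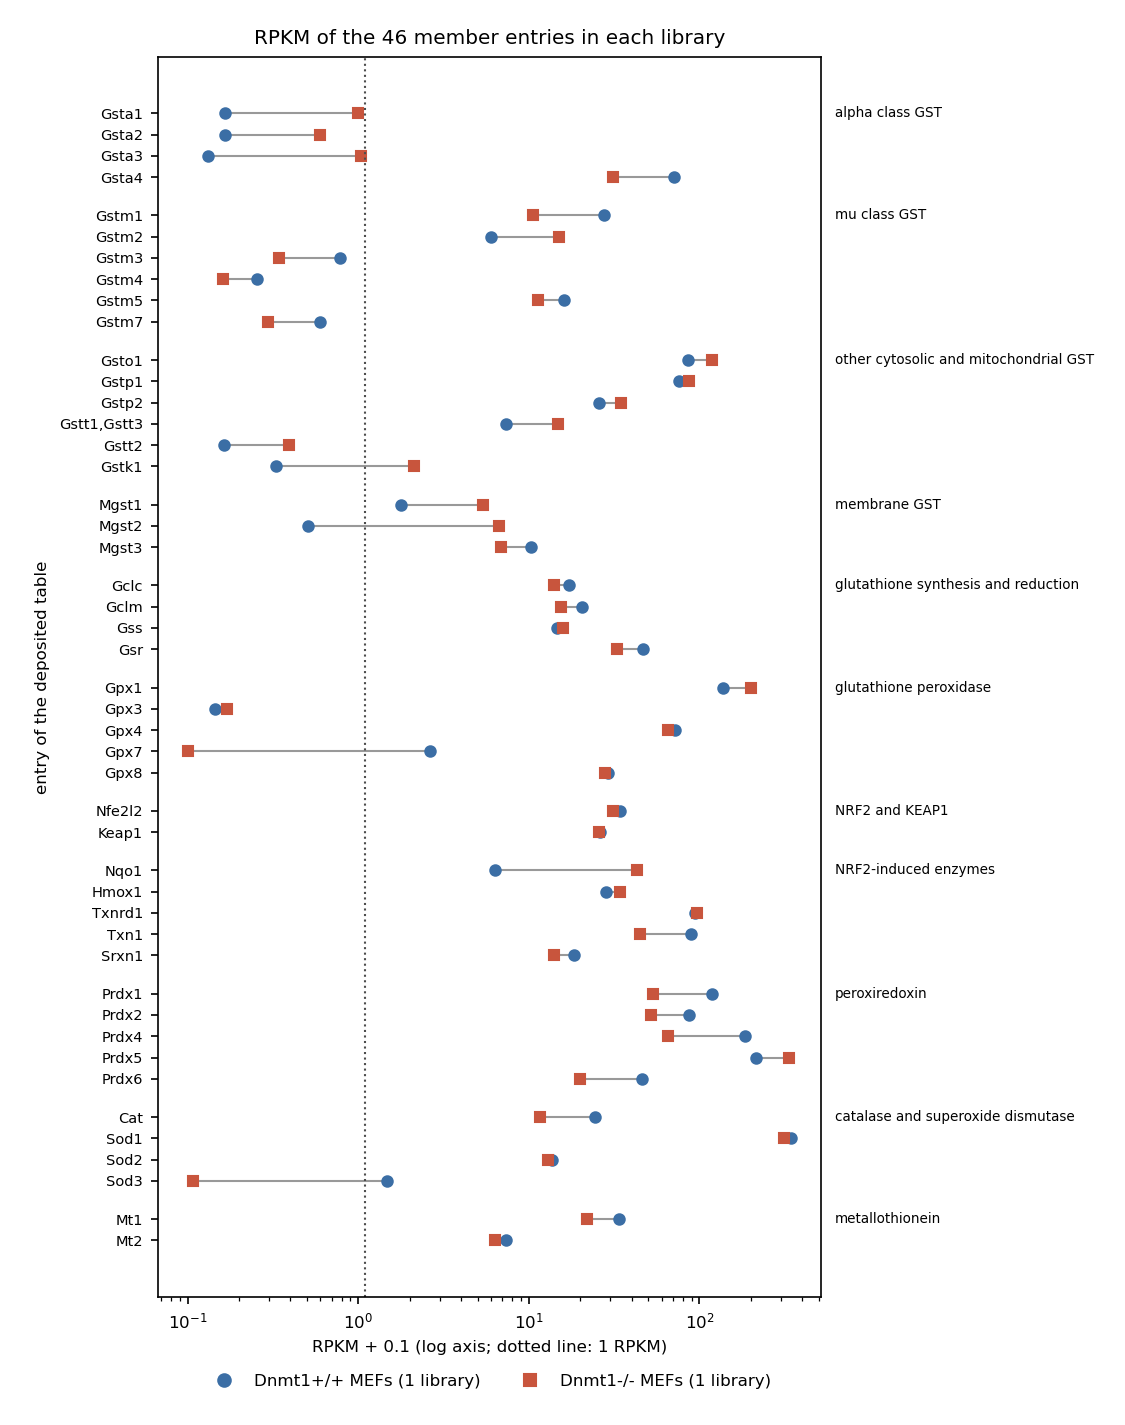
RPKM of the 46 entries in the Dnmt1+/+ library (circles) and the Dnmt1-/- library (squares), on a log axis after adding 0.1 and grouped by role, with a dotted line at 1 RPKM. The long lines of Mgst2 and Nqo1 run to the right and those of Gpx7 and Sod3 to the left, while Nfe2l2, Keap1, Txnrd1 and Sod1 have symbols that nearly touch.

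The counts were also split by starting level, the Dnmt1+/+ value. Each change subtracts that same value, so low starters lean up and high starters lean down in part by construction. Of 29 entries at 10 RPKM or more in Dnmt1+/+, none was higher in Dnmt1-/- and 6 were lower (20.7%). Of all genes at that level, 2.48% were higher and 6.85% lower, so having none higher among 29 does not set the members apart. Of 7 entries between 1 and 10 RPKM in Dnmt1+/+, 4 were higher and 2 lower, where 6.76% of all genes in that range were higher and 17.4% lower. The 2 entries under 1 RPKM in Dnmt1+/+, Mgst2 and Gstk1, passed the filter through Dnmt1-/-. The summed RPKM of the 46 entries was 2040 for Dnmt1+/+ against 1900 for Dnmt1-/- MEFs, a ratio of 0.931. The GST entries summed to 329 and 346 RPKM and the other entries to 1711 and 1554, so totals moved far less than many single genes.

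**Figure D2:**
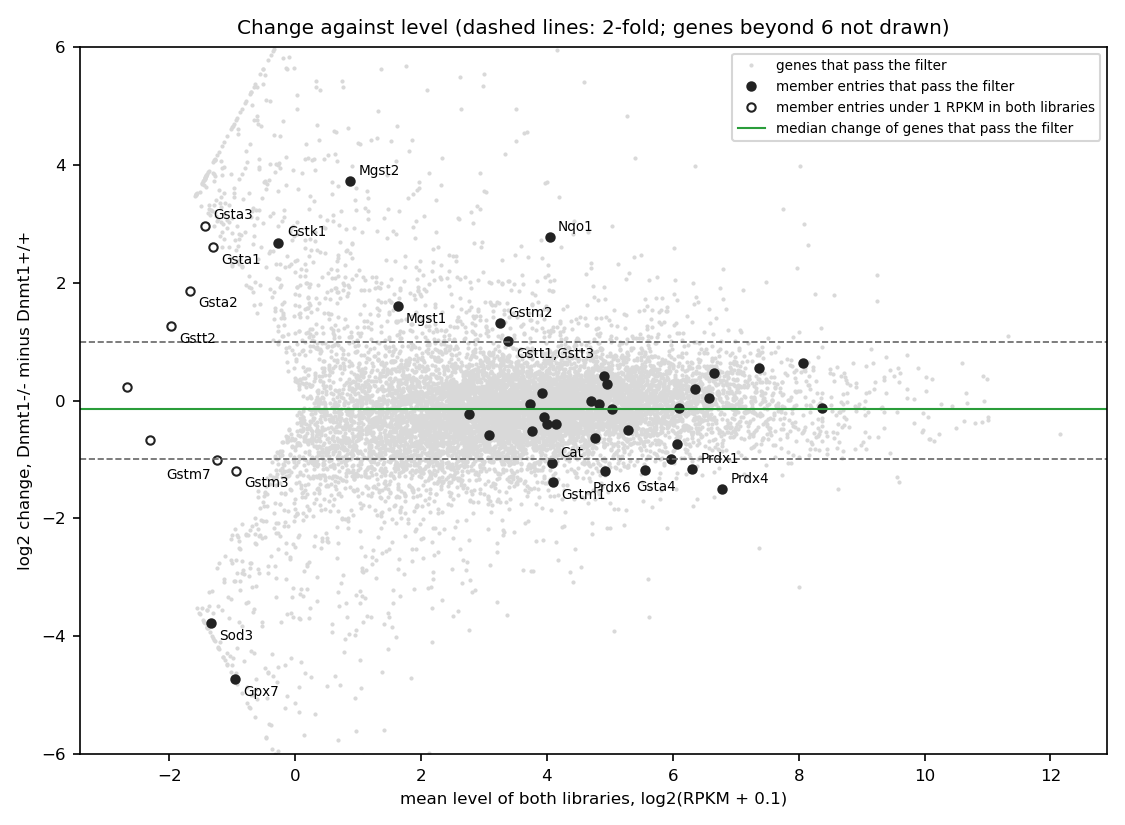
Log2 change of each entry (vertical axis) against its mean level in both libraries (horizontal axis, log2(RPKM + 0.1)), with the genes that pass the filter in grey and the entries under 1 RPKM in both libraries as open circles. Of the members past 2-fold, Prdx4, Prdx1, Gsta4 and Prdx6 lie furthest right, all below the lower dashed line. Past the upper dashed line, Nqo1 lies furthest right, with a change of 2.77 and a mean level near those of Cat and Gstm1.

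Since Dnmt1 methylates cytosine in CpG dinucleotides, the CpG content of the promoters was examined. RefSeq windows of build GRCm38.p6, from 250 bases before to 50 after a transcription start, were found for 40 of the 47 genes, and for a gene with several windows the one with most CpGs was used. Windows were not found for Gsta4, Gstt2, Gclc, Gsr, Hmox1, Prdx6 and Sod3. The windows of Mgst2 and Nqo1, which had the largest changes above 0 among members that pass the filter on the scale used here, and of Gpx7, the gene listed at 0 in Dnmt1-/-, are printed 5′ to 3′ on the strand of the gene with each CpG in capitals. They lie at chr3:51660929-51661228 on the plus strand, chr8:107403156-107403455 on the minus strand and chr4:108406664-108406963 on the minus strand.
Mgst2: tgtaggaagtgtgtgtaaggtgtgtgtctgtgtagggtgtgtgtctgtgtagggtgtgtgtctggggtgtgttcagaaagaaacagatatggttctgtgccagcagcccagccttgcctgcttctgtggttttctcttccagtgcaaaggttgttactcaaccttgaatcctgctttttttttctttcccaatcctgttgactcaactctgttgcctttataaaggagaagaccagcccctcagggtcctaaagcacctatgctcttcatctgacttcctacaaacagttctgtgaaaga
Nqo1: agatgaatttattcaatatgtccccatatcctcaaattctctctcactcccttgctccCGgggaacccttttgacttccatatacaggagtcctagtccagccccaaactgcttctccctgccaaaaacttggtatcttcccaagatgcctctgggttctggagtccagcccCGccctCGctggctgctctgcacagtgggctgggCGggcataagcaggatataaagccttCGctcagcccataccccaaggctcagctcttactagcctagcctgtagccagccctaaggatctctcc
Gpx7: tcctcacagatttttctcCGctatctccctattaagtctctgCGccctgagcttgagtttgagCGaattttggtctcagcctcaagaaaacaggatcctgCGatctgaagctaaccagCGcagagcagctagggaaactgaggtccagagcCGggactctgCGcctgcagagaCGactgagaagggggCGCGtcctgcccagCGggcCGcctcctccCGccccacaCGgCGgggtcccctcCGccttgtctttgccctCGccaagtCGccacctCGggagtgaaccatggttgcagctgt

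The Mgst2 window holds 0 CpGs, that of Nqo1 holds 5, and that of Gpx7 holds 19. All genes that pass the filter and have a window had 0 to 64 CpGs, with a median of 23. Among the single-gene member entries of that kind, the 5 higher members had between 0 and 13 CpGs, with a median of 5. Of these 5, Mgst2 and Gstk1 passed the filter through Dnmt1-/- alone and could be counted as higher only. The 5 lower members had 11 to 20, with a median of 19, and the 21 members within 2-fold had 11 to 48, with a median of 21. Mgst2, Gstm2 and Nqo1 were the 3 with fewer than 10 CpGs. Of the 14 with 20 or more none was higher, which is near the 4.53% of all genes with as many CpGs. Members under 1 RPKM in both libraries include CpG-poor windows in both directions, with 2 CpGs for Gsta1, Gsta2 and Gsta3, which had higher values in Dnmt1-/-, and 5 for Gstm3 and 9 for Gstm7, which had lower ones.

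Over all genes, too, higher genes were most frequent in the CpG-poorest class. Of 285 genes with 0 to 4 CpGs in the window, 34.4% were higher in Dnmt1-/-, of 517 with 5 to 9 CpGs 25%, of 2065 with 10 to 19 CpGs 7.41%, and of 4859 with 20 or more 4.53%. Genes under 1 RPKM in Dnmt1+/+ pass the filter only if they are at 1 or more in Dnmt1-/-. Among genes at 1 RPKM or more in Dnmt1+/+, the shares of higher genes were 14.2%, 9.26%, 4.22% and 2.86% from the CpG-poorest class to the richest. Lower genes were also most frequent in the CpG-poorest class of that set, at 23.6%, against 8.83% in the richest. In every class of that set, lower genes were more frequent than higher ones. Methylation of these windows was not analysed here.

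**Figure D3:**
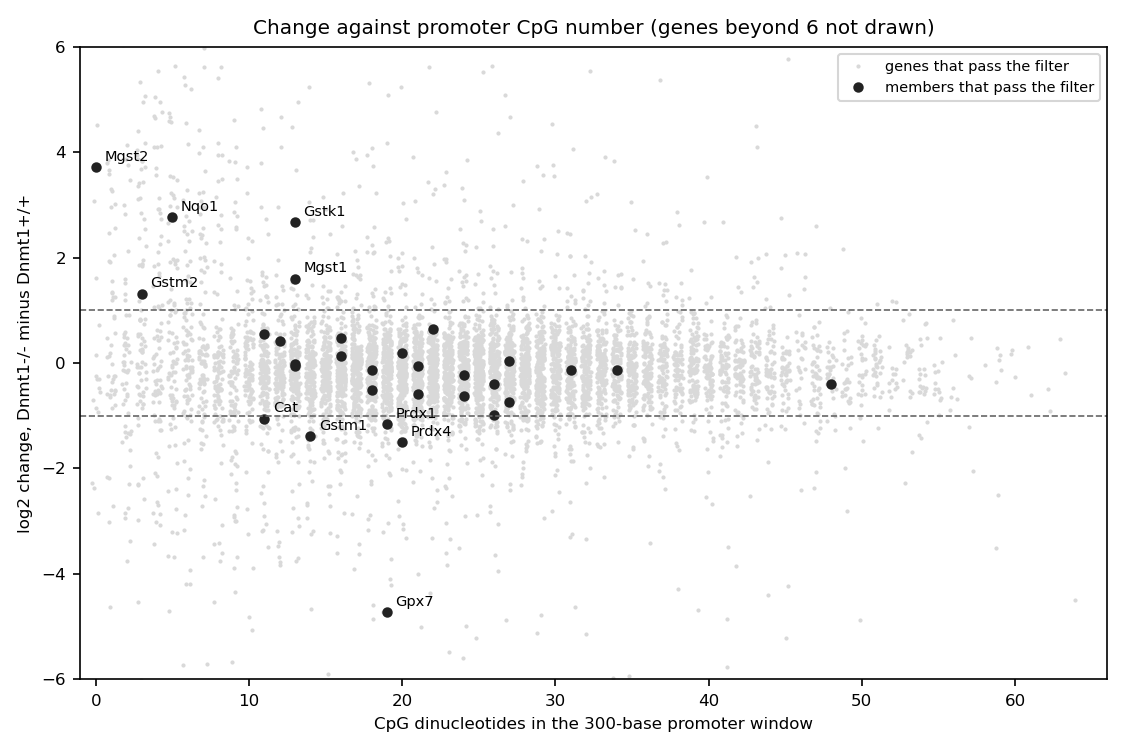
Log2 change, Dnmt1-/- minus Dnmt1+/+ (vertical axis), against the number of CpG dinucleotides in the 300-base promoter window (horizontal axis), for the genes that pass the filter (grey) and the members (black), with dashed lines at 2-fold. Mgst2, Gstm2 and Nqo1 are at the left with 0, 3 and 5 CpGs. The members with 20 or more CpGs all lie below the upper dashed line, which 4.53% of all genes with as many CpGs exceed.

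Mgst2, which occupies bases 51464282 to 51486597 of chromosome 3 (plus strand, NCBI37, the build called mm9), had the largest change above 0 among the members with a pseudocount of 0.1. With a pseudocount of 1 that of Nqo1 was larger, at 2.61 against 2.43, and with 0.01 that of Gsta3, which stays under 1 RPKM, was larger, at 4.48 against 3.98. It encodes a microsomal GST that also makes leukotriene C4. It was at 0.404 RPKM in Dnmt1+/+ and 6.54 in Dnmt1-/-, 16.2-fold higher, a change of 3.72. As it passed the filter through Dnmt1-/- alone, a large change was built in, and all genes that did so had a median change of 2.97. Mgst1, whose enzyme sits in endoplasmic reticulum and mitochondrial membranes and is abundant in liver, was at 1.68 and 5.29 RPKM, 3.15-fold higher. Mgst3, the third of these membrane enzymes, had the opposite sign, at 10.2 and 6.77 RPKM, a change of -0.58 that stayed within 2-fold. The membrane GSTs as a group thus summed to 12.3 RPKM in Dnmt1+/+ and 18.6 in Dnmt1-/-, with Mgst3 the largest contributor in both.

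Gstk1, the kappa class enzyme of mitochondria and peroxisomes, was at 0.229 and 2.01 RPKM, a change of 2.68. The gene spans bases 42195934 to 42200440 of chromosome 6, plus strand. The joint entry of the theta class genes Gstt1 and Gstt3 was at 7.22 and 14.6 RPKM, a change of 1.01, or 0.93 with a pseudocount of 1. How its reads divide between the 2 genes cannot be told from the table. Gstt2, a further theta gene on chromosome 10, was under 1 RPKM in both libraries, at 0.0636 and 0.294. Gsto1, which encodes the omega class enzyme, was the GST with the highest level in both libraries, at 85.8 RPKM in Dnmt1+/+ and 118.7 in Dnmt1-/-. The pi class genes Gstp1, at 75.9 and 86.9 RPKM, and Gstp2, at 25.7 and 34.4, were within 2-fold.

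The mu class genes, which lie in a cluster on chromosome 3 between bases 107698739 and 107847812, differed in direction. Gstm1 was at 27.6 RPKM in Dnmt1+/+ and 10.5 in Dnmt1-/-, a change of -1.38. Gstm2, in the same cluster, was at 5.93 and 14.9 RPKM, a change of 1.32, so the order of these 2 genes was reversed between the libraries. Gstm5, at the far end of the cluster and on the opposite strand, was at 16.1 and 11.2 RPKM, within 2-fold. Gstm3 at 0.686 and 0.245 RPKM, Gstm7 at 0.499 and 0.196, and Gstm4 at 0.157 and 0.0605 stayed under 1 RPKM in both libraries, with lower values in Dnmt1-/-.

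The alpha class was likewise divided. Gsta4, the enzyme that clears the lipid peroxidation product 4-hydroxynonenal, was at 70.9 and 31.2 RPKM, a change of -1.18. It lies on chromosome 9 from 78039773 to 78057155, and the nearby genes Gsta1 and Gsta2 were higher in Dnmt1-/- but under 1 RPKM throughout, at 0.0645 and 0.900 RPKM and at 0.0646 and 0.50 RPKM. Gsta3, on chromosome 1, was at 0.0324 and 0.938 RPKM, just short of the filter. These 3 alpha genes are the detoxifying transferases of liver and steroid-forming tissue, and in these MEFs all 3 were listed near 0 in Dnmt1+/+.

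Shared sequence limits what can be said of several GSTs, since a 50-base read that fits more than 1 place or gene cannot be assigned with certainty. Each protein-coding transcript of the members in the GENCODE annotation of NCBI37 was cut into all of its stretches of 50 bases, the read length. Identical copies of each stretch were sought elsewhere in the genome and in protein-coding transcripts of other genes, so near-identical stretches were not counted. For 26 of the 47 genes no stretch was found elsewhere, among them Mgst1, Mgst2, Gstk1, Gsta3, Gsta4, Nqo1, Gpx7, Prdx4, Cat and Sod3. For 13 genes at least 10% of the stretches were found elsewhere, with copies on either strand counted. Of these, Gstt3, Prdx2 and Prdx5 pass 10% only through transcripts of other genes. In the genome outside the gene, their shares were 0.649%, 8.24% and 0%. The share was 89.8% for Gsta1 and 48.3% for Gsta2. It was 67.8% for Gstp1 and 82.6% for Gstp2, and 67.5% of the Gstp1 stretches occur in Gstp2, so the separate values of these 2 genes are uncertain while their sum, 102 and 121 RPKM, is less affected. The share was 27.5% for Gstm1 and 38.7% for Gstm2, and their opposite changes carry this uncertainty. Outside the GSTs, it was 53.6% for Gpx4, 22.9% for Sod1, 24.2% for Sod2 and 13.4% for Prdx2. For Prdx5 the share, 26.9%, comes from transcripts of the overlapping gene Trmt112, which was at 49.6 and 50.9 RPKM.

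**Figure D4:**
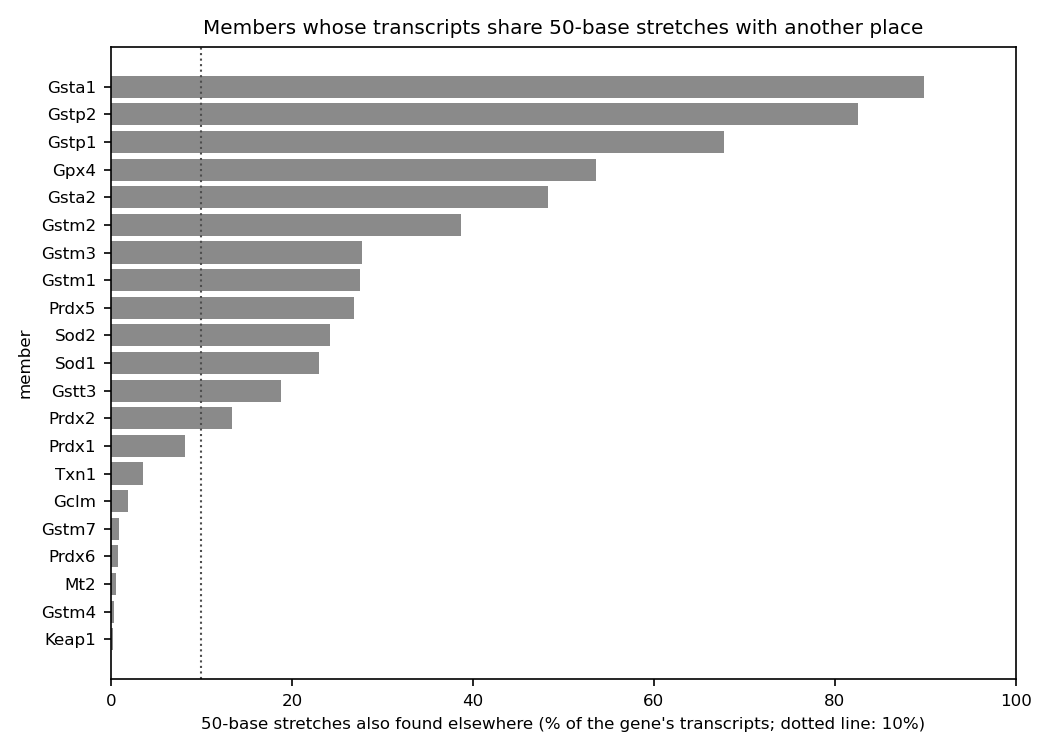
Percentage of the 50-base stretches of a gene's protein-coding transcripts with an identical copy elsewhere (horizontal axis), for the members with any such stretch. Elsewhere means in the genome outside the gene or in protein-coding transcripts of another gene, and the dotted line is at 10%. Gsta1, Gstp2, Gstp1 and Gpx4 are above 50%, and of the members past 2-fold that pass the filter, Gstm2, Gstm1 and Gstt3 lie beyond the dotted line.

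The genes that build and recycle glutathione were all within 2-fold. Gclc and Gclm encode the catalytic and modifier subunits of glutamate-cysteine ligase. Gclc was at 17.0 RPKM in Dnmt1+/+ against 14.0 in Dnmt1-/-, and Gclm was at 20.2 and 15.3. Gss, the synthetase, was at 14.4 and 15.8 RPKM, and Gsr, the reductase, at 46.3 and 32.7. Changes ran from -0.50 to 0.13.

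Among the glutathione peroxidases the most abundant, Gpx1, the cytosolic enzyme, was at 137 RPKM in Dnmt1+/+ and 201 in Dnmt1-/-, a change of 0.55. Gpx4, which repairs lipid peroxides in membranes and guards against ferroptosis, was at 71.9 and 65.7 RPKM, although 53.6% of its stretches also occur elsewhere in the genome. Gpx8, a membrane protein of the endoplasmic reticulum, was at 29.0 and 27.8 RPKM. Its close relative in the same compartment, Gpx7, was at 2.54 RPKM in Dnmt1+/+ and was listed at 0 in Dnmt1-/-, and for this reason no fold is given. Gpx7 spans bases 108072995 to 108079566 of chromosome 4, minus strand. Gpx3, the secreted plasma enzyme, was near 0 in both libraries, at 0.0451 and 0.0706 RPKM.

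The regulators of the pathway hardly differed. Nfe2l2, the gene of NRF2, was at 34.2 RPKM in Dnmt1+/+ and 31.0 in Dnmt1-/-, a change of -0.14, equal to the median of all genes. Keap1 was at 25.9 and 25.7 RPKM, a change of -0.01. RNA levels do not report NRF2 activity, which is set mainly by the stability of the protein.

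Many members that are grouped by enzyme class elsewhere in this text are also induced by NRF2, so the group listed as NRF2-induced is not complete. Of its 5 enzymes, 1 was past 2-fold. Nqo1, a quinone reductase widely used to read out NRF2 activity, was at 6.22 RPKM in Dnmt1+/+ and 43.0 in Dnmt1-/-, 6.91-fold higher, a change of 2.77. The gene spans bases 109912125 to 109927106 of chromosome 8, minus strand. Hmox1, which encodes heme oxygenase 1, was at 28.1 and 34.0 RPKM, and Srxn1, the sulfiredoxin that reactivates peroxiredoxins, at 18.3 and 13.9. Txnrd1, the cytosolic thioredoxin reductase, was at 93.6 and 96.5 RPKM, whereas its substrate Txn1, thioredoxin, was at 88.6 and 44.4, a change of -0.99. The change of Nqo1 was larger than those of the other 4, while thioredoxin RNA was 1.99-fold lower with its reductase nearly level.

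NRF2 binds with small MAF proteins to the antioxidant response element, whose core was searched as TGACNNNGC on both strands of the same windows. It was found in 11 of the 40 genes (27.5%), against 17.1% of the 7726 genes that pass the filter and have a window, and 14.0% of all 27025 symbols. The elements are printed with 8 bases on either side and the matched core in capitals, read on the strand of the core, to show how far the matches differ in the 3 open positions.
Gsta3: ctcaggcaTGACATTGCatttttct
Gstm5: ccgcccacTGACCACGCggagggcg
Gstm7: tgaagaccTGACAAAGCgaagccaa
Mgst1: ccgcctccTGACCGTGCcaagcccc
Gclm: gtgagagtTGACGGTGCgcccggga
Nfe2l2: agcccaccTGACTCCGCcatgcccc
Txnrd1: tgtcagaaTGACAAAGCaaaaatcc
Srxn1: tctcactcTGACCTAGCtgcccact
Prdx1: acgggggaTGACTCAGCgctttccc
Sod1: cctgagtcTGACCACGCccaccttg
Mt2: agggggtgTGACTCAGCgcgggggg

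Prdx1 and Mt2 share the core TGACTCAGC, Gstm7 and Txnrd1 share TGACAAAGC, and Gstm5 and Sod1 share TGACCACGC. The first of these also contains TGACTCA, the site bound by AP-1. Of the 11 genes, 9 reached 1 RPKM, with changes from -1.17 for Prdx1 to 1.60 for Mgst1, and the other 7 were within 2-fold. Of the genes at large that hold the core and pass the filter, 7.85% were higher and 9.97% lower. No match was found in the Nqo1 window, which says only that these letters are absent from it.

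Of the 5 peroxiredoxins among the members, which remove hydrogen peroxide, 3 were lower and 2 were within 2-fold. A further peroxiredoxin, Prdx3, is not a member, was read with another list and was within 2-fold at -0.68. Prdx4, the enzyme of the endoplasmic reticulum, was at 186 RPKM in Dnmt1+/+ and 65.6 in Dnmt1-/-, a change of -1.50. Prdx4 is X-linked, and the 394 X-linked genes that pass the filter had a median change of -0.39, against -0.13 for the autosomal ones. The autosomal Prdx1 was at 119 and 52.9 RPKM, a change of -1.17, and Prdx6, which also reduces phospholipid peroxides, at 45.7 and 19.9, a change of -1.20. Prdx2 was at 86.7 and 51.9 RPKM, within 2-fold at -0.74. Prdx5, found in mitochondria and peroxisomes, was also within 2-fold but with the opposite sign, at 216 and 336 RPKM, a change of 0.64, and was the most abundant of the 5 in both libraries. Summed over the 5 genes, the level was 653 RPKM in Dnmt1+/+ and 526 in Dnmt1-/-, with Prdx5 the largest contributor in both.

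Catalase, the peroxisomal enzyme encoded by Cat, was at 24.2 RPKM in Dnmt1+/+ and 11.6 in Dnmt1-/-. Its change of -1.06 became -0.92 when the median of all genes was subtracted, which takes it back within 2-fold. Sod1, the cytosolic copper-zinc superoxide dismutase, had the highest level of any member in Dnmt1+/+, at 344 RPKM, and was at 315 in Dnmt1-/-. Sod2, the mitochondrial manganese enzyme, was at 13.5 and 12.9 RPKM. Sod3, the secreted form bound to the matrix around cells, was at 1.37 RPKM in Dnmt1+/+ and 0.00735 in Dnmt1-/-, a change of -3.78. Both intracellular dismutases were within 2-fold, and the extracellular one, low to begin with, was almost undetected in Dnmt1-/-. The metallothioneins, small metal-binding proteins that also scavenge oxidants, were within 2-fold, with Mt1 at 33.9 and 21.8 RPKM and Mt2 at 7.28 and 6.20.

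The rest of the pathway was read from 147 further genes in 8 lists, of which 144 were matched. Of 112 entries that reached 1 RPKM, 10 were higher (8.93%) and 14 lower (12.5%), near the background of 8.47% and 10.9%, and their median change was -0.19. Oplah, Ggt7, Dpep1, Gsto2, Aldh3a1, Akr1c13 and Xdh reached 1 RPKM in Dnmt1-/- only and could be counted as higher alone, and Anpep, Cbs, Ptges, Msrb2 and Aldh1a1 reached it in Dnmt1+/+ only and could be counted as lower alone.

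In the list of cystine uptake and glutathione turnover, 4 of 17 entries were higher and 4 lower, of which Ggct, Chac1 and Cth reached 1 RPKM in both libraries. Slc7a11 and Slc3a2, which together form the cystine transporter, were within 2-fold, at 9.17 and 6.42 RPKM and at 149 and 107 RPKM. The genes of the route from homocysteine to cysteine were lower, with Cbs at 4.26 RPKM in Dnmt1+/+ against 0.111 in Dnmt1-/-, and Cth at 34.8 and 6.67. Chac1, which degrades glutathione in the cytosol, was at 27.3 and 9.48 RPKM, and the peptidase gene Anpep was at 1.49 and 0.221. The 4 higher genes also act in glutathione breakdown. Ggct was at 2.02 and 7.31 RPKM, Oplah at 0.466 and 1.65, Ggt7 at 0.645 and 4.61, and Dpep1 at 0.00818 and 1.45.

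In the glutaredoxin and thioredoxin list, none of 22 entries was higher and 4 were lower. The 3 sestrins, stress proteins of which some are known p53 targets, were all among the 4, with Sesn1 at 29.0 RPKM in Dnmt1+/+ and 9.31 in Dnmt1-/-, Sesn2 at 13.6 and 3.56, and Sesn3 at 8.12 and 2.62. The fourth was Msrb2, a mitochondrial methionine sulfoxide reductase, at 2.55 and 0.638 RPKM. Prdx3, the mitochondrial peroxiredoxin, was at 29.0 and 18.0 RPKM, and Txnip, the inhibitor of thioredoxin, at 9.31 and 17.3, both within 2-fold.

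NADPH is the electron donor of glutathione and thioredoxin reductase. Its list, of enzymes that supply it and others of the pentose phosphate route, had a median change of -0.44 over 13 entries. Of these, Tkt and Taldo1 do not make NADPH themselves. Aldh1l2, a mitochondrial folate enzyme, was at 67.8 RPKM in Dnmt1+/+ against 15.1 in Dnmt1-/-, and Tkt, the transketolase, was at 112 and 55.3. Taldo1, the transaldolase of the same pentose phosphate route, was the 1 higher entry, at 31.3 and 73.2 RPKM. Pgd at 107 and 55.6 RPKM and Idh1 at 49.8 and 25.5 stopped just short of 2-fold. G6pdx was not analysed here.

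Of 22 entries for other NRF2 targets, 2 were higher and 3 lower. Aldh3a1, an aldehyde dehydrogenase, was at 0.313 RPKM in Dnmt1+/+ against 5.31 in Dnmt1-/-, and Akr1c13, an aldo-keto reductase, at 0.0594 and 1.18. Cbr1, a carbonyl reductase, was at 13.2 and 1.39 RPKM, Aldh1a1, which makes retinoic acid, at 2.12 and 0.271, and Osgin1 at 6.07 and 2.04. The ferritin genes were Fth1 at 1542 and 1676 RPKM and Ftl1 at 517 and 295, both within 2-fold. The median change of this list was -0.24.

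Of 19 entries for regulators of NRF2, 1 was past 2-fold. Mafk, a small MAF partner of NRF2, was at 7.98 RPKM in Dnmt1+/+ and 25.7 in Dnmt1-/-, a change of 1.68. Mafg at 13.1 and 12.7 RPKM, the repressor Bach1 at 9.70 and 8.40, and Cul3, the ligase scaffold that KEAP1 uses, at 82.9 and 61.2 were within 2-fold. The list of other transferases, peroxidases and related proteins had 8 entries that reached 1 RPKM. They were Gstcd, Gsto2, Gstz1, Ptges, Clic1, Clic4, Eef1g and Mars, while Gpx2, Gpx5 and Gpx6 were listed at 0 in both libraries. Gsto2 was higher, at 0.499 and 1.51 RPKM, and Ptges, the inducible prostaglandin E synthase, was lower, at 1.20 and 0.0914. Of 4 entries for superoxide sources that reached 1 RPKM, 1 was past 2-fold. Xdh, xanthine dehydrogenase, was at 0.374 RPKM in Dnmt1+/+ and 24.2 in Dnmt1-/-, a change of 5.68. The 7 entries for metal handling were all within 2-fold.

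**Figure D5:**
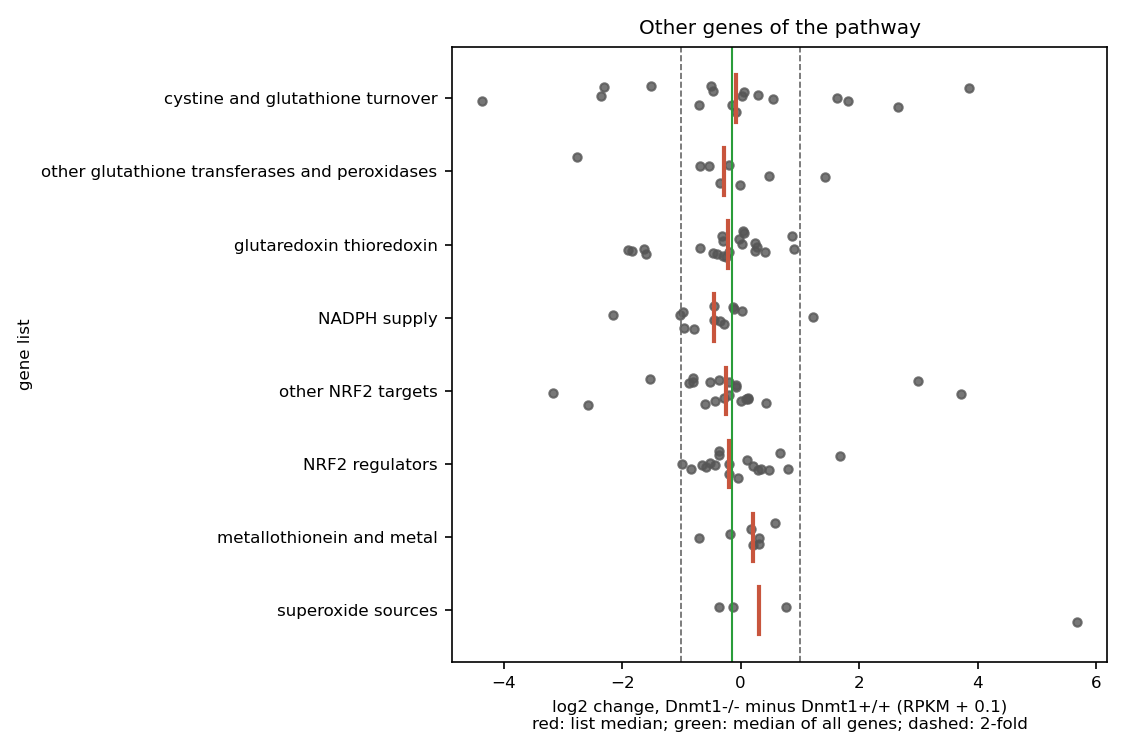
Log2 change, Dnmt1-/- minus Dnmt1+/+ (horizontal axis), of the entries of 8 further lists (vertical axis) that reached 1 RPKM, each point an entry, with the list median in red, the median of all genes in green and dashed lines at 2-fold. List medians run from -0.44 for NADPH supply to 0.32 for superoxide sources, a wide spread is seen in cystine and glutathione turnover, and the single point beyond 5 is Xdh.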

How the data were processed

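Strand-specific mRNA-seq reads of 50 bases, single-end, were mapped by the authors to mm9 with TopHat, assembled with Cufflinks and quantified with Cuffdiff. The authors deposited RPKM values, 1 column per library, with versions not given in the sources used here. Whether the libraries were scaled further, and whether strand was used to assign reads of overlapping genes, is likewise not given there. The columns named wt and ko were taken as Dnmt1+/+ and Dnmt1-/-. The table holds no counts, so depth per value is unknown.

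Changes were computed from log2(RPKM + 0.1). Entries were kept with status OK, a symbol and at least 1 RPKM in a library. No test is possible with 1 library per genotype. Members, lists and thresholds were chosen with earlier results of these data known. Every member is reported. From the other lists all genes past 2-fold that pass the filter are named, with some genes central to each role. Symbols were matched directly or through RefSeq synonyms. Loci in the table start 1 base before the annotation in 2858 of 10872 genes, so gene coordinates were taken from GENCODE for NCBI37, and promoter coordinates from RefSeq for GRCm38.p6. The calculations were tested on simulated data. Alternatives were pseudocounts of 1 and 0.01, other filters, subtraction of the median, a 1.5-fold threshold, and leaving out joint entries or, chosen after seeing the data, members with shared sequence. Python 3.11.15, numpy 2.4.6, pandas 2.3.3 and matplotlib 3.10.9 were used.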

Additional observations from a re-analysis of the deposited data

How the results depend on the processing

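The number of higher members, 6 of 38 entries, was 10 of 46 without the filter on low RPKM, where the background was 9.92%. At a threshold of 1.5-fold it was 7 of 38, where the background was 14.1%. Under the other settings it was between 4 and 6 of 28 to 38 entries, with backgrounds of 6.96% to 9.71%. The number of lower members, 8 of 38, was between 7 and 10 of 28 to 46 entries, with backgrounds of 7.12% to 11.4%. It was 11 of 38 at a threshold of 1.5-fold, where the background was 23.7%. The setting with 28 entries, which leaves out shared sequence, has no background of its own. The 4 additional higher entries, Gsta1, Gsta2, Gsta3 and Gstt2, are under 1 RPKM in both libraries. The median change of the members, -0.13, became 0.0062 when the median of all genes was subtracted, and -0.34 when members with 10% or more of shared 50-base stretches were left out, which removes 10 entries. Of single members, Gstt1 with Gstt3 returned within 2-fold with a pseudocount of 1 and Cat with the median subtracted, and the other 36 kept their side of the 2-fold limit under these settings and a pseudocount of 0.01. No paired analysis was possible because each genotype has 1 library. Counting error and the spread between cultures are unknown, so small differences in RPKM cannot be read as differences between genotypes.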

Other observations

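At the loci of 4 members the table holds 6 further entries without a gene symbol, whose strand and exact position are not given there. The one at the Gstm1 locus was at 5.34 RPKM in Dnmt1+/+ and 1.23 in Dnmt1-/- MEFs, lower by more than 2-fold like Gstm1 itself. The one at the locus shared by Gsta3 and Tmem14a was at 6.96 and 3.41 RPKM, a change of -1.01, where Gsta3 was at 0.0324 and 0.938. At the Prdx5 locus there are 3, and the most abundant was at 4.33 and 2.13 RPKM, where Prdx5 itself was within 2-fold at 216 and 336. At the Prdx2 locus the entry was at 2.73 and 2.27 RPKM.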
